A study of Mus musculus with 2 samples.

Results

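Hepatic mRNA levels of the metallothioneins, their transcription factor MTF-1 and a set of zinc transporters were compared between normal and diabetic mouse liver. The 8 genes were chosen by name, *Mt1*, *Mt2*, *Mtf1*, *Slc30a1*, *Slc30a10*, *Slc39a1*, *Slc39a5* and *Slc39a14*, and 7 of them were among the 8551 genes of the deposited table, the exception being *Slc39a1*. Livers came from 9-week-old male C57BL/6 wild type mice and from db/db males of the same age and labelled background, which have no functional leptin receptor and develop obesity and type 2 diabetes. All mice were fed chow, and livers were removed about 3 h into the light phase. There was 1 tag library per group, and the methods do not say whether livers were pooled. No difference below therefore has a replicate check, and a change in the cells of a type present cannot be told apart from a change in RNA per cell. Since the *db* mutation is present in the whole body, the comparison does not separate liver from other tissues.

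Metallothioneins are small cysteine-rich proteins of the cytosol that bind zinc, copper and cadmium. When free zinc rises, MTF-1 (metal regulatory transcription factor) binds metal response elements and induces the metallothionein genes and the zinc exporter gene *Slc30a1*, while glucocorticoids and interleukin-6 also induce metallothioneins in liver. Exporters of the SLC30 (ZnT) family move zinc out of the cytosol, and importers of the SLC39 (ZIP) family move it in.

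The method sequences a short tag that starts at a DpnII site (GATC) of a transcript, and a gene's level is its share of the clean tags of the library, which the study scales to a unit it calls TPM (1 TPM is 1e-04% of the clean tags). A gene is thus counted at a site and not along its length, so levels of different genes are given as counted and were not divided by length. The tags expected at the last GATC of the RefSeq-matched GENCODE transcripts were read for the genes that differed most, to show what was counted, with the enzyme site in capitals.

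Mt1: GATCtcggaatggaccccaa
Mt2: GATCctgctcctgcgctggc
Slc39a5: GATCcaggttgcccttcctt

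The *Mt1* tag (GRCm38, chr8:94179302-94179321, plus strand) lies in exon 1 of 3 and spans the start of the coding region, with 11 coding bases. The *Mt2* tag (chr8:94173130-94173149, plus strand) lies in exon 2 of 3 and is coding over all 20 bases. The *Slc39a5* tag (chr10:128396009-128396028, minus strand) lies in the 3′ UTR, in exon 11 of 11. The *Mt1* and *Mt2* tags differ at 13 of 20 positions. None of the expected tags of the 7 listed genes was found at a GATC of a transcript of another gene. This search covered the strand of the transcripts only. At these sites the reads of the 2 metallothionein genes can be told apart. The expected tag of *Slc39a1* was common to its pseudogene *Slc39a1-ps*. The table does not give the tags counted, and with cDNA primed by random hexamers, per the labels, tags from other GATC sites of a transcript are possible, so these are positions in the annotation.

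The spacing of the deposited values gave a depth of 10278531 clean tags in normal and 13508232 in diabetic liver, so that 3 reads, the limit a count of 0 allows, were worth 0.292 TPM and 0.222 TPM. The labelled tissue was checked with hepatocyte markers, of which 7 of 10 were listed. They summed to 30297 TPM in normal and 19739 TPM in diabetic liver, and 1 was called higher and 2 lower by the fold and FDR defined below. *Alb* (albumin) was at 6801 TPM and 6912 TPM, and *Cyp2e1*, a cytochrome P450, at 6581 TPM and 7817 TPM. *Apoa1*, the main apolipoprotein of HDL, fell from 14668 TPM to 2875 TPM. The part of these differences in the results was not tested. Of 20 exocrine pancreas markers only *Cela2a* was listed, at 21 reads in the normal and 3 in the diabetic library.

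The metallothioneins and *Slc39a5* were far higher in the diabetic library, while the remaining 4 listed genes were within 1.5-fold, as were 50.3% of all listed genes. Thus 3 of the 7 genes exceeded the fold of 1.5 upward and 0 downward, against 34.4% and 15.3% of all listed genes. With an FDR under 0.001 also required, which the study added to the fold of 1.5, the same 3 genes were called higher and 0 lower, against 22.9% and 8.19% of all listed genes. The 3 genes were each at least 10-fold higher, which only 1.11% of the listed genes were. The FDR is from an exact binomial test on reads that compares the 2 libraries, not the conditions. Over all listed genes 73.6% of these calls were upward, and 47.4% to 52.6% when the libraries were scaled in 4 other ways, under each of which the 3 genes were still called. The median log2 ratio of the 7 genes was 0.24, beside 0.25 for all listed genes. At this depth, counting error alone is small for *Mt1* and *Mt2* and large for *Mtf1* and *Slc30a1*.

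**Figure D1:**
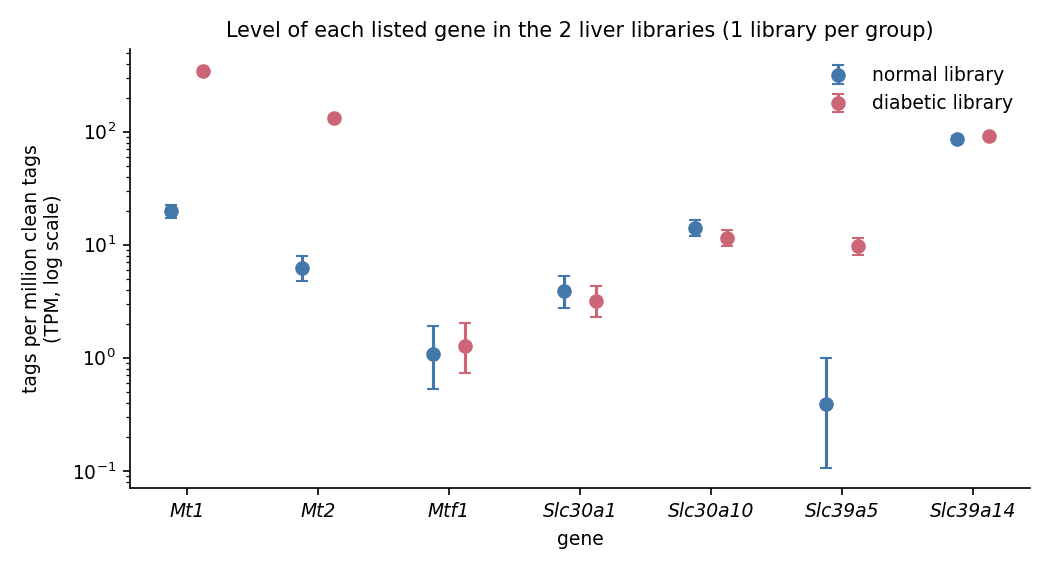
Level of each of the 7 listed genes (x axis) in the normal and diabetic libraries, in TPM on a log scale. Points are the deposited values and bars are 95% exact Poisson intervals, which cover counting error only. *Mt1*, *Mt2* and *Slc39a5* are separated between the libraries, and the intervals of the other 4 genes overlap.

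*Mt1* (metallothionein 1, Entrez 17748) had 203 reads in normal liver, which is 19.75 TPM, and 4683 reads in diabetic liver, which is 346.7 TPM. The diabetic level was 17.6 times the normal level, a log2 ratio of 4.13 (95% exact interval from counting error, 3.93 to 4.34). *Mt1* thereby went from rank 2184 to rank 205 by level among the 8551 listed genes. *Mt2* (metallothionein 2, Entrez 17750) was at 6.23 TPM from 64 reads and at 131.4 TPM from 1775 reads, in the same order. Its ratio was 21.1-fold, a log2 ratio of 4.40 (95% interval, 4.04 to 4.78), and it went from rank 4525 to rank 557. By log2 ratio, *Mt2* ranked 54th and *Mt1* 59th among the 8551 listed genes.

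The 2 metallothionein genes kept nearly the same proportion to each other. *Mt1* made up 76.0% of their reads in the normal library (203 of 267, 95% Clopper-Pearson interval 70.4% to 81.0%) and 72.5% in the diabetic library (4683 of 6458, 71.4% to 73.6%), and the intervals overlap. Together they held 26.0 TPM (95% exact interval, 23.0 to 29.3) in the normal library and 478 TPM (466 to 490) in the diabetic library. The other metallothionein genes, *Mt3* and *Mt4*, which are known mainly from brain and squamous epithelium, were not listed.

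*Mt1* and *Mt2* lie next to each other on chromosome 8, with their RefSeq starts 6471 bases apart. Of the protein-coding genes within 3 places of either, *Herpud1*, a gene of the endoplasmic reticulum stress response, was listed at 92.4 TPM and 286.9 TPM (log2 ratio 1.63, 95% interval 1.53 to 1.74). *Bbs2*, on the other side, was at 1.75 TPM and 1.92 TPM (log2 ratio 0.13, 95% interval -0.79 to 1.09). *Nup93*, *Slc12a3*, *Mt3* and *Mt4* were not listed. These flanking genes were looked up after the metallothionein values were seen.

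*Mtf1* (Entrez 17764), which encodes the zinc sensor and activator of the metallothionein genes, was the least abundant member in the diabetic library. It had 11 reads (1.07 TPM) in normal and 17 reads (1.26 TPM) in diabetic liver. The log2 ratio of 0.24 was imprecise, with a 95% interval of -0.94 to 1.47. Its levels overlap within counting error, and the interval runs from 0.52-fold to 2.78-fold. The mRNA level does not measure MTF-1 activity, which is set largely by zinc binding to the protein.

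*Slc30a1* (ZnT1, Entrez 22782), the plasma membrane zinc exporter and a textbook MTF-1 target, had 40 reads (3.89 TPM) in normal and 43 reads (3.18 TPM) in diabetic liver. The log2 ratio was -0.29, and the upper bound of its 95% interval (-0.95 to 0.37) is 1.29-fold. The interval lies wholly below those of *Mt1* and *Mt2*. *Slc30a10* (Entrez 226781), which exports manganese, was at 14.0 TPM from 144 reads and at 11.5 TPM from 155 reads, also a log2 ratio of -0.29 (95% interval, -0.62 to 0.05). On the deposited scale the FDR of the exact binomial test was 0.467 for *Slc30a1* and 0.140 for *Slc30a10*, and neither passed. Under 4 other scalings between the libraries *Slc30a10* was at log2 ratios of -0.59 to -0.54, with an FDR of 0.00119 to 0.00341, which is still above 0.001.

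*Slc39a14* (ZIP14, Entrez 213053), the hepatic importer of zinc, manganese and iron that interleukin-6 is known to induce, was the most abundant member in the normal library at 86.1 TPM from 885 reads. In the diabetic library it was at 90.7 TPM from 1225 reads, where both metallothioneins exceeded it. The log2 ratio of 0.07 (95% interval, -0.05 to 0.20) did not pass the exact binomial test (FDR 0.326), and the interval limits any increase between these libraries to 1.15-fold. Under the 4 other scalings between the libraries, which take 0.25 to 0.31 off every log2 ratio, *Slc39a14* turned to between -0.23 and -0.18. Its FDR was then 0.00607 to 0.0124 under 3 of them and 0.00088 under median-ratio scaling, which passes 0.001, while the fold stayed under 1.5.

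*Slc39a5* (ZIP5, Entrez 72002), an importer of the basolateral membrane in intestine and pancreas, was at the lower edge of detection in the normal library with 4 reads (0.39 TPM) and had 131 reads (9.70 TPM) in the diabetic library. It had the highest ratio of the 7 genes, 24.9-fold or a log2 ratio of 4.64, but with only 4 reads its 95% interval ran from 9.50-fold to 92.8-fold (exact test FDR 4.7e-26). With 1 TPM added to both values, the log2 ratio was 2.94. *Slc39a5* is also made in the exocrine pancreas, of whose 20 markers the other 19 were not listed and *Cela2a* was at 2.04 TPM and 0.22 TPM. Its part in the *Slc39a5* values was not tested. The nearest listed genes beside it on chromosome 10, *Cs* and *Smarcc2*, had log2 ratios of 0.53 and 0.56.

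The order of levels differed between the libraries. In the normal library it was *Slc39a14*, *Mt1*, *Slc30a10*, *Mt2*, *Slc30a1*, *Mtf1* and *Slc39a5*, and the intervals of *Mt2* and *Slc30a1*, and of *Mtf1* and *Slc39a5*, overlapped. In the diabetic library it was *Mt1*, *Mt2*, *Slc39a14*, *Slc30a10*, *Slc39a5*, *Slc30a1* and *Mtf1*, and only *Slc30a10* and *Slc39a5* overlapped with their neighbour.

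**Figure D2:**
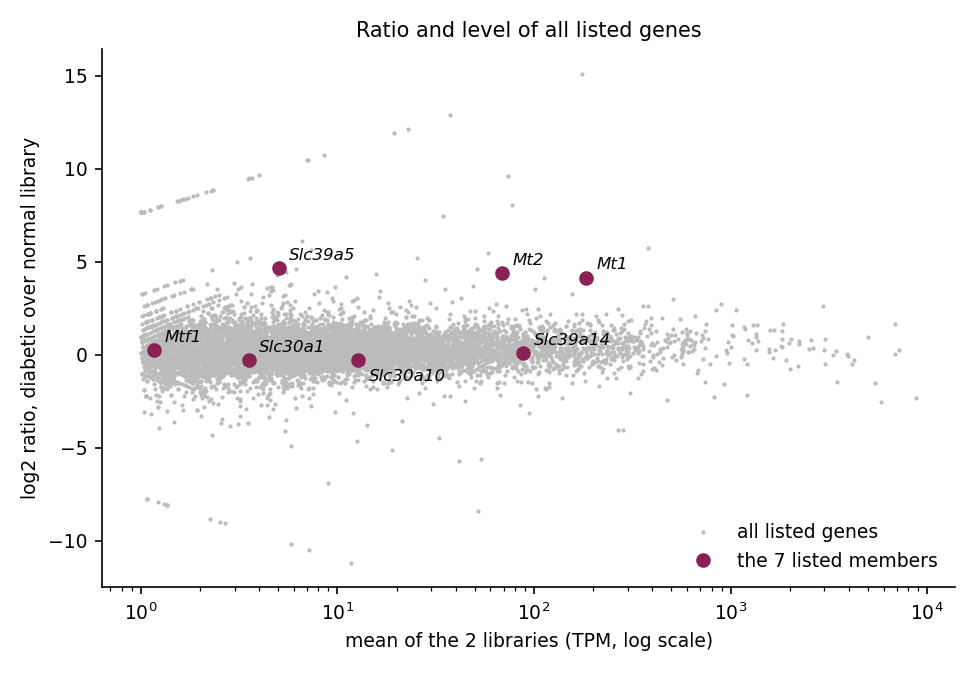
Log2 ratio of the diabetic over the normal library (y axis) against the mean level of the 2 libraries in TPM on a log scale (x axis), for all 8551 listed genes in grey and the 7 members in colour. Genes without a read in 1 library stand at the outer arcs, because the table holds 0.01 TPM in place of 0. *Mt1* and *Mt2* stand above nearly all genes of similar level, while *Mtf1*, *Slc30a1*, *Slc30a10* and *Slc39a14* lie within the bulk.

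Among the other zinc transporters, no gene came near the ratio of *Slc39a5*. Of 19 further SLC30 and SLC39 genes 12 were listed, and 1 of these passed 1.5-fold upward and 6 downward. The shares over all listed genes were 34.4% and 15.3%. With the FDR also required, 1 was called higher and 2 lower, against 22.9% and 8.19% of all listed genes. The median log2 ratio of the 12 genes was -0.48, beside 0.25 for all listed genes, but 7 of the 12 had a mean under 5 TPM.

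Of the SLC30 family, *Slc30a5* (ZnT5), which loads zinc into the secretory pathway, rose from 9.34 TPM to 16.95 TPM (log2 ratio 0.86, 95% interval 0.51 to 1.22). It was not called under any of the 4 other scalings, with an FDR of 0.00116 to 0.00342 and log2 ratios of 0.55 to 0.61. *Slc30a4* was at 4.09 TPM and 3.26 TPM, *Slc30a7* at 3.89 TPM and 2.52 TPM, and *Slc30a9* at 1.95 TPM and 0.67 TPM. None of these 3 genes passed the FDR. Of the SLC39 family, *Slc39a4* (ZIP4), the intestinal importer that is mutated in acrodermatitis enteropathica, fell from 24.9 TPM to 15.2 TPM (log2 ratio -0.71, 95% interval -0.99 to -0.44). *Slc39a3* fell from 24 reads to 7 reads, and its log2 ratio of -2.16 was imprecise (95% interval, -3.63 to -0.91). *Slc39a8* (ZIP8), the closest relative of *Slc39a14*, was at 22.5 TPM and 31.1 TPM, a log2 ratio of 0.47 (95% interval, 0.23 to 0.71) that lay under 1.5-fold. *Slc39a11*, *Slc39a13* and *Slc39a9* had log2 ratios of 0.39, 0.49 and 0.54. *Slc39a2* and *Slc39a10*, with at most 20 reads in a library, both had a log2 ratio of -1.02 and did not pass the FDR.

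**Figure D3:**
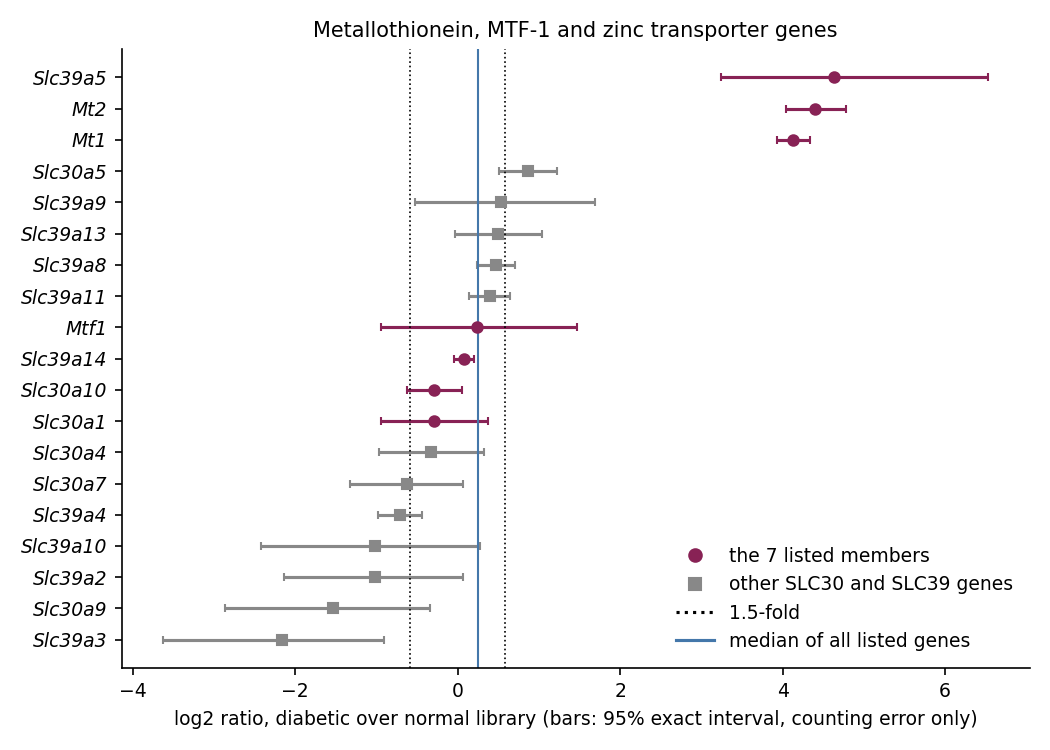
Log2 ratio of the diabetic over the normal library (x axis) of the 7 members (circles) and the 12 other listed SLC30 and SLC39 genes (squares), sorted by ratio, with 95% exact intervals for counting error. Dotted lines mark 1.5-fold in each direction and the solid line the median of all listed genes, 0.25. *Slc39a5*, *Mt2* and *Mt1* stand apart from the other 16 genes, of which the highest is *Slc30a5* at 0.86.

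Since the metallothionein genes moved together and *Slc30a1* did not, the promoters of these 3 genes were compared. They are shown as the 250 bases before the RefSeq start, on the strand of the gene, with matches to the metal response element core in capitals. The first 30 bases from the RefSeq start of *Mt1* are added because 2 of its matches lie there.

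Mt1, chr8:94178839-94179088, plus strand: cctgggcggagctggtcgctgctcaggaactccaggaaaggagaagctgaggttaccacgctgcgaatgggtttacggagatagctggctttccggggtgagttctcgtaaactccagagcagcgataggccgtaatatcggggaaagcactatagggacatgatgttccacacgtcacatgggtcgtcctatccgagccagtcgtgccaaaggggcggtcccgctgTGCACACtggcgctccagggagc
Mt1, the 30 bases from the start: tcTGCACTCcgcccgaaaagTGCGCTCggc
Mt2, chr8:94172368-94172617, plus strand: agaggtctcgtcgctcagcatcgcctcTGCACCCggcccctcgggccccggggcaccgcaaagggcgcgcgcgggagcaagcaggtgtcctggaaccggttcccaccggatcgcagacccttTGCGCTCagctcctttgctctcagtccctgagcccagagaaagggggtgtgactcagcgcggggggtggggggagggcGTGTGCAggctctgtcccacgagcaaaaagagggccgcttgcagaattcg
Slc30a1, chr1:191906531-191906780, plus strand: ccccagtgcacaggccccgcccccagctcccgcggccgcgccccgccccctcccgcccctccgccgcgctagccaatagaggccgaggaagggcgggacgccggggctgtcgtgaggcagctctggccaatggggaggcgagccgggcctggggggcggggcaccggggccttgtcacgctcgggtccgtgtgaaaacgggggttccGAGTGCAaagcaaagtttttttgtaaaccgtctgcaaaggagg

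The sequences are from RefSeq (GRCm38.p6), where 7 of the 8 genes had a promoter entry, *Slc39a5* with 2 starts. The window searched ran from 250 bases before to 50 bases after the start, on both strands. The core was searched as TGCACNC and TGCGCNC, where N is any base. *Mt1* held 3 matches, starting 23 bases before the RefSeq start and at bases 3 and 21 from it. Whether that start is the one used in liver was not tested, and the window moves with it. *Mt2* held 4 matches, 3 of them before the start and the other 1 at base 5. At least 3 matches were found in 1.97% of all 32851 promoter windows and at least 4 in 0.517%, while 25.7% held at least 1. *Slc30a1* held 2 matches, and 7.11% of the windows held at least 2, and *Slc30a10* held 3, of which 2 overlap on opposite strands. *Slc39a5* held 1 match at 1 of its 2 starts, and *Mtf1* and *Slc39a1* held none in this window.

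The same count of matches was set beside the ratios of the table as a whole. Of the 260 listed genes other than *Mt1* and *Mt2* with at least 3 matches in a promoter window, 32.7% were at least 1.5-fold higher, compared with 35.2% of the 3963 genes with 0 matches. Their median log2 ratios were 0.23 and 0.28. At least 10-fold higher were 1.15% of the former and 1.11% of the latter.

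The glucocorticoid half-site TGTTCT was present in 19.0% of all windows and, among the 7 genes, in *Mtf1* alone. The antioxidant response element TGACNNNGC, bound by NRF2, was present in 12.4% of all windows and in those of *Mt2*, *Slc30a1*, *Slc39a1* and *Slc39a5*. A match is a run of letters and does not show binding, and sites beyond the window were not searched. The lack of a match, as for the antioxidant element in *Mt1*, holds only for the window around the RefSeq start used.

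**Figure D4:**
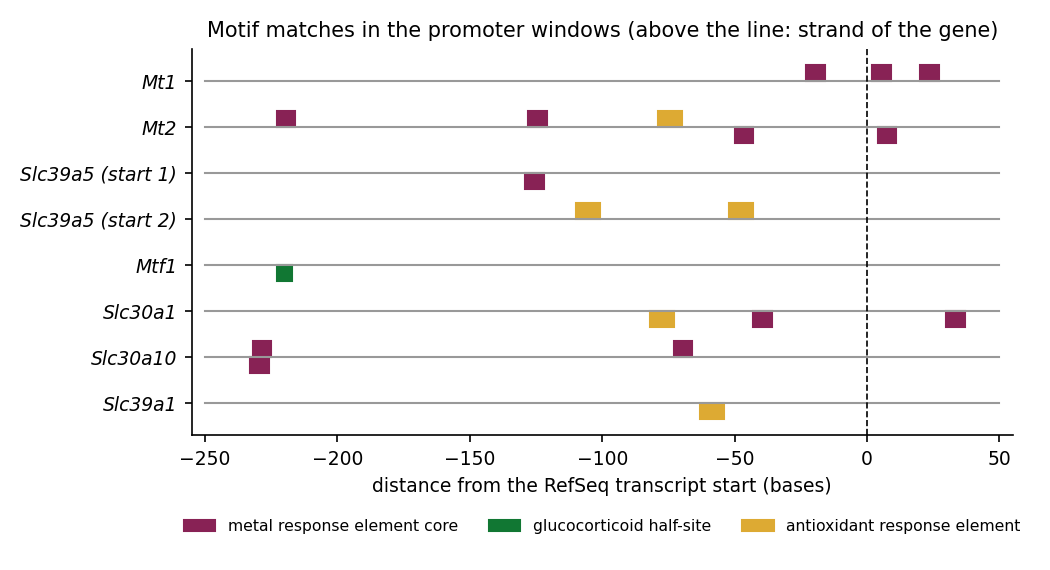
Matches to the metal response element core, the glucocorticoid half-site and the antioxidant response element in the promoter windows of the 7 genes with an entry, by distance in bases from the RefSeq start (x axis). Boxes above a line are on the strand of the gene and boxes below it on the other strand. *Mt1* has 3 and *Mt2* 4 metal response matches, *Slc30a10* has 3 with 2 overlapping, and *Slc30a1* has 2.

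Genes of the other known inducers of metallothioneins were read beside them. Of 12 glucocorticoid receptor and target genes, 11 were listed, 5 were called higher and 0 lower by fold and FDR, with a median log2 ratio of 0.42, beside 22.9% called higher and a median of 0.25 over all listed genes. Under each of the 4 other scalings 3 of the 11 were called higher, beside 13.3% to 14.9% of all listed genes. *Fkbp5*, a feedback inhibitor of the receptor, rose from 3.31 TPM to 12.96 TPM (log2 ratio 1.97, 95% interval 1.43 to 2.54). *Lcn2*, an acute-phase siderophore-binding protein, rose from 16.7 TPM to 71.6 TPM. *Tdo2* rose 1.63-fold but was under 1.5-fold in each of the 4 other scalings, whereas *Tat*, the most abundant gene of this list, had a log2 ratio of -0.20 and *Nr3c1* itself, the receptor, was at 35.0 TPM and 41.4 TPM. Of 17 interleukin-6 and acute-phase genes 12 were listed, with 1 called higher and 3 lower and a median log2 ratio of -0.26. Over all listed genes 22.9% were called higher and 8.19% lower. Under the 4 other scalings this list had 1 called higher and 4 to 5 lower, beside 13.4% to 14.8% of all listed genes lower. In the interleukin-6 list *Orm3* rose 7.47-fold and *Saa3* fell by 1.75 on the log2 scale. *Hp* was at 1427 TPM and 1001.7 TPM, and *Hpx*, the plasma carrier of heme, at 2279 TPM and 2942 TPM. These last 2 were within 1.5-fold as deposited. *Hp* was called lower under each of the 4 other scalings, at log2 ratios of -0.82 to -0.76. Of 14 NRF2 and antioxidant genes 10 were listed, with a median log2 ratio of 0.83. Of these 6 were called higher and 1 lower, beside 22.9% and 8.19% of all listed genes. Under each of the 4 other scalings 4 of the 10 were called higher and 2 lower, with medians of 0.52 to 0.57. Over all listed genes 13.3% to 14.9% were then called higher and 13.4% to 14.8% lower. *Nfe2l2*, which encodes NRF2, rose 4.53-fold its target *Nqo1* 8.27-fold and *Gclc*, of glutathione synthesis, from 67.5 TPM to 165 TPM, while *Osgin1* fell by 2.25 on the log2 scale. The part of any of these genes in the metallothionein levels was not tested.

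Markers of other liver cells also differed between the libraries. Of 13 Kupffer cell markers 9 were listed, with a summed level of 347 TPM in normal and 203.7 TPM in diabetic liver. Called lower were 5 of the 9 and higher 1, beside 8.19% and 22.9% of all listed genes. Under the 4 other scalings 5 were lower and 0 higher, beside 13.4% to 14.8% and 13.3% to 14.9% of all listed genes. The complement genes *C1qa* and *C1qc* both fell by 1.80 on the log2 scale, from 176 TPM and 11.1 TPM in the normal library. *C1qb*, the 1 called higher, rose from 38.1 TPM to 57.8 TPM, while *Cd5l* was at 64.7 TPM and 62.9 TPM. Endothelial markers summed to 152 TPM and 132 TPM over 10 of 10 listed genes. Of these 1 was called higher and 2 lower, beside 22.9% and 8.19% of all listed genes. *Clec4g* fell by 0.64 and *Eng* by 0.59 on the log2 scale, while *Kdr* rose by 0.89. Under the 4 other scalings 0 or 1 were called higher and 2 lower. Stellate cell markers summed to 65.3 TPM and 80.6 TPM over 7 of 9. Of these the collagen gene *Col1a1* rose from 3.11 TPM to 9.40 TPM and *Reln* fell from 12.8 TPM to 7.11 TPM, while *Col3a1* had a log2 ratio of 0.49. Cholangiocyte markers summed to 67.1 TPM and 111.0 TPM over 4 of 7 listed genes. *Spp1* (osteopontin) made up most of that sum at 57.2 TPM and 103 TPM, and was under 1.5-fold in median-ratio and upper-quartile scaling. Of 11 erythroid markers only *Alas2* was listed, at 51.9 TPM and 44.2 TPM. The part of these markers in the results was not tested.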

How the data were processed

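Tag libraries of normal and diabetic mouse liver, 1 per group, were compared. The authors isolated poly(A) RNA, digested cDNA with DpnII, sequenced tags, compared clean tags with RefSeq (mm9 is among the builds of the submitters' notes) and deposited what they call TPM, which are RPM values relative to a library's clean tags, with 0.01 in place of 0 and genes with a mean under 1 left out. The study distinguishes tags of 1 gene from tags shared by several genes, but how shared tags entered the table, and the aligner, are not given in the sources used here. The number of other columns of per-sample values was 0.

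Whole reads were recovered from the spacing of the values, and 8513 of 8513 and 8536 of 8537 values above 0.01 were whole reads within 0.005 TPM. The FDR is from a two-sided exact binomial test with Benjamini-Hochberg adjustment over 8551 genes. Intervals are 95% exact intervals and, like the floor of 3 reads, cover counting error only, since tags carry no molecular identifiers. Called means at least 1.5-fold, with an FDR under 0.001 where stated. Lists were described by counts and medians. The genes and lists were chosen with earlier results of these data known. Named were all listed members, metallothioneins and SLC30 and SLC39 genes, and of other lists the 2 most abundant genes and up to 3 genes that averaged 5 TPM or more and differed at least 3-fold. *Nr3c1*, *C1qb*, *Kdr* and flanking genes were named after their values were seen. One gene that this rule names is not reported here. Expected tags of 20 bases were read from GENCODE M21 and promoters from RefSeq, both on GRCm38, a build other than mm9. TMM trimmed 30% of ratios and 5% of means, and the median ratio was taken over genes averaging 10 TPM or more. The computation was tested on simulated reads. Software was matplotlib 3.10.9, pandas 2.3.3, scipy 1.17.1 and numpy 2.4.6 under Python 3.11.15.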

Additional observations from a re-analysis of the deposited data

How the results depend on the processing

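The values of the members and the other zinc transporters were recomputed with the libraries scaled in 4 other ways, with 0.1 or 1 TPM added to both values, with genes averaging under 5 TPM left out, with a fold of 2 and with the Audic-Claverie test. The 3 higher genes, *Mt1*, *Mt2* and *Slc39a5*, were called higher under each of these, with log2 ratios of 3.83 to 4.13 for *Mt1*, 4.09 to 4.40 for *Mt2* and 2.94 to 4.64 for *Slc39a5*. Of 61 values of single genes, 53 kept direction and call and 8 changed sign, none of them a called gene. These were *Slc39a14* and *Mtf1*, at -0.18 and -0.0236 relative to the listed sum, -0.18 and -0.0165 under TMM, -0.23 and -0.0699 under median ratio, and -0.19 and -0.0324 under upper quartile. These scalings lower every log2 ratio by construction. Under median-ratio scaling 2 members, *Slc30a1* and *Slc30a10*, were at least 1.5-fold lower in place of 0, neither with an FDR under 0.001, and 0 of the other zinc transporters were higher. With a fold of 2 that last count was also 0. With a mean of at least 5 TPM, 1 of the other zinc transporters was lower in place of 6. The median log2 ratio of the 5 members left was 4.13, since *Slc30a1* and *Mtf1* were left out. *Slc39a5*, at 0.39 TPM and 9.70 TPM, passed this filter only through its diabetic value, so this setting is no check on its ratio.

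Over all listed genes, 73.6% of the genes called were higher, and 47.4% to 52.6% under the 4 scalings. A count of 0 members lower held with each test. The same settings were applied to the counts of called genes in 16 lists of other genes after the data were seen, and of 288 counts 250 stayed within 1.5 times and 38 did not. Promoter matches and levels were not recomputed. The edgeR alternatives with an assumed variation of 20% and 40% were not run. No paired analysis was possible because each group has 1 library, and for the same reason no setting leaves out a library. Variation between mice is not measured, and *Mtf1*, *Slc30a1* and *Slc39a5* rest on few reads.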

Other observations

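The level of proteins that use or carry zinc was also read. Of 23 zinc metalloenzyme genes 19 were listed, with 7 called higher and 1 lower and a median log2 ratio of 0.45. Over all listed genes 22.9% were called higher and 8.19% lower, with a median of 0.25. Under each of the 4 other scalings 5 of the 19 were called higher and 1 lower, with medians of 0.14 to 0.20. The share of all listed genes called higher was then 13.3% to 14.9%, and the share called lower 13.4% to 14.8%. *Bhmt*, betaine-homocysteine methyltransferase, was at 2180 TPM and 3849 TPM (log2 ratio 0.82), which passes 1.5-fold as deposited but under 1.5-fold in each of the 4 other scalings, at 0.51 to 0.57. *Adh1*, alcohol dehydrogenase, was at 1524 TPM and 2081 TPM, which is within 1.5-fold, and *Gda*, guanine deaminase, rose from 11 reads to 132 reads. Of 6 genes of zinc-binding plasma proteins 5 were listed and 0 differed at least 1.5-fold, while 1 was called lower under each of the 4 other scalings, with a deposited log2 ratio of 0.02 for *Alb* and 0.01 for *Ahsg*.

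Copper is also bound by metallothioneins. Of 12 copper handling genes 9 were listed, with 4 called higher and 1 lower and a median log2 ratio of 0.77. Over all listed genes 22.9% were called higher and 8.19% lower. Under each of the 4 other scalings 3 of the 9 were called higher and 1 lower, with medians of 0.47 to 0.52. Over all listed genes 13.3% to 14.9% were then called higher and 13.4% to 14.8% lower. *Atox1*, the copper chaperone that serves the secretory pathway, rose from 241 TPM to 543 TPM (log2 ratio 1.17, 95% interval 1.11 to 1.24), and *Sco2*, which helps to assemble cytochrome c oxidase, rose from 208 TPM to 399 TPM. The copper importer *Slc31a1*, chosen after its values were seen, had a log2 ratio of 0.22 (95% interval, -0.04 to 0.48). Of 7 manganese genes 4 were listed, and *Sod2* rose from 130 reads to 349 reads while *Pcx* had a log2 ratio of -0.15.

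With only 2 libraries, a gene's pattern is a pair of levels. By Euclidean distance of the log2 levels, the genes nearest to *Mt1* were *Cyp2a5*, *Gstt3* and *Cd36*, at distances of 0.65 to 1.00, and those nearest to *Mt2* were *Cyp3a59*, *Mfsd2a* and *Lhpp*, at distances of 0.56 to 0.98. *Cd36* was at 12.1 TPM and 213 TPM, and *Mfsd2a*, a lysophosphatidylcholine transporter that is induced by fasting, at 4.09 TPM and 98.1 TPM.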
